A study of Mus musculus with 9 samples.

Results

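Interferon-stimulated genes are the genes that cells switch on when interferon reaches them, and 36 of them, induced by type I interferons, interferon gamma or both, were followed here through 9 mouse lymphomas. The list was named gene by gene. Of its 36 genes, 34 had at least 1 probe set assigned to them alone, out of 18193 genes so named on the array, and 28 of the 34 had a log2 intensity over 4 (an intensity of 16, taken as the top of the background range) in at least 4 of the 9 lymphomas, a filter that 10172 genes passed. The only Isg15 probe set is shared with another gene in the annotation, and no probe set was listed for Ifi44, so both are named only. The tumours were 5 lymphomas of mice carrying 2 transgenes, Eμ-Myc and Eμ-TTP-1 (called double-transgenic), and 4 lymphomas of mice carrying Eμ-Myc alone, with 1 Affymetrix array per tumour. Both groups therefore carry Eμ-Myc, an oncogene transgene whose immunoglobulin enhancer is active in B lineage cells, and both are on a background that is 94% C57BL/6. The second transgene is TTP (tristetraprolin, gene Zfp36), an mRNA-binding protein that promotes the decay of mRNAs with AU-rich elements, placed under the same type of enhancer. Ages and sexes are not given in the sources used here.

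Type I interferons signal through the receptor chains IFNAR1 and IFNAR2 and the kinases JAK1 and TYK2. A complex that includes STAT2 and IRF9 then binds the interferon-stimulated response element, and interferon gamma acts through a different receptor and a different DNA element, the gamma-activated site. The products degrade or sequester viral RNA, act on the membranes around intracellular microbes, feed peptides to class I molecules and attract T cells, and many of the same genes can be induced in tumours by RNA or DNA sensed inside the cells or by infiltrating lymphocytes.

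The label of the tumours was checked against 8 B lineage markers, of which 7 were named on the array. All 7 passed the filter, and their summed intensity was 67253 to 74656 in double-transgenic and 50511 to 89606 in Eμ-Myc lymphomas. Zfp36 mRNA, read by a probe set that may or may not lie in the transgene's part of the mRNA, was 10.85, 9.98, 10.80, 10.34 and 10.79 in double-transgenic replicates 1 to 5, against 10.84, 10.20, 11.00 and 10.24 in Eμ-Myc replicates 1 to 4. The ranges overlapped, so it does not check the genotype labels. In whole tumours, fewer cells of a type and less RNA per cell cannot be told apart, and precision is limited by how few arrays there are.

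The DNA letters through which these genes are known to be controlled lie close to their starts, and are shown for 6 of the tested members that hold them: 5 whose levels varied together over the tumours, and Stat2, whose levels did not. Promoter stretches of 80 bases are from RefSeq (build GRCm38.p6), 5′ to 3′ in the direction of the gene, and lie wholly before the start. Capitals mark GAAA, any 2 bases and GAAA again, or the reverse complement, the core letters of the interferon-stimulated response element, and adjoining capitals are overlapping matches.
Ifit3, chr19:34583355-34583434, plus strand: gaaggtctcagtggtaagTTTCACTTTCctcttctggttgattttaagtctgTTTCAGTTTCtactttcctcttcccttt
Oas1a, chr5:120907526-120907605, minus strand: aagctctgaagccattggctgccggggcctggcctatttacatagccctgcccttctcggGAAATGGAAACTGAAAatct
Rsad2, chr12:26456528-26456607, minus strand: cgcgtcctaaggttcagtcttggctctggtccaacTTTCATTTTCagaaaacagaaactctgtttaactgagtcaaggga
Bst2, chr8:71537555-71537634, minus strand: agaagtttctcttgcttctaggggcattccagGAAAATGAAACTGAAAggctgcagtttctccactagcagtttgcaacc
Trim30a, chr7:104465194-104465273, minus strand: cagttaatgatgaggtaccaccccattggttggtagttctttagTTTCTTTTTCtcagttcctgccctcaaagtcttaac
Stat2, chr10:128270248-128270327, plus strand: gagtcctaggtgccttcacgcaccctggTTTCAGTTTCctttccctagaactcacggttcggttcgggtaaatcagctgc

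Irf1 is shown as an example of another motif, and its levels, like those of Stat2, did not follow those of the other genes above. Its stretch holds TTCNNNGAA, the letters of the gamma-activated site, in capitals.
Irf1, chr11:53769888-53769967, plus strand: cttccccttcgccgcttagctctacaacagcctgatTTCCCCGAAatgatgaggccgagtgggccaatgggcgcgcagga

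Of the 36 listed genes, 28 matched the promoter table by symbol. This paired GAAA motif, searched on both strands in the 250 bases before the start, was found in 14 of these 28 (50%), against 3.32% of the 8331 tested genes with a window and 2.98% of all 32851 windows. TTCNNNGAA, which reads the same on both strands, was found in 6 of the 28 (21.4%), against 7.03% of tested genes, and in Bst2, Igtp and Oas1a both motifs occur. Neither motif was confined to members with 1 pattern over the tumours. Gbp2 and Gbp3, which did not vary with most members, hold the paired GAAA motif. Ifit2 and Psmb8, which did, hold TTCNNNGAA. A match is a description of the letters and not a measured binding site.

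The interferon-stimulated genes differed more from tumour to tumour than most genes did, and the differences ran across genotypes. Eμ-Myc replicate 4 had the highest values, double-transgenic replicate 1 came next then double-transgenic replicate 5, and Eμ-Myc replicate 1 had the lowest. For each tested member the deviation from its own median over the 9 tumours was taken, and the mean over the 28 members is called the level of the members, in log2 units. It was 1.13, -0.10, -0.43, -0.45 and 0.40 in double-transgenic replicates 1 to 5, and -0.96, -0.05, -0.29 and 1.57 in Eμ-Myc replicates 1 to 4. Each genotype thus held tumours at both ends, with a mean level of 0.11 ± 0.67 in double-transgenic (SD, n = 5) and 0.06 ± 1.07 in Eμ-Myc lymphomas (SD, n = 4).

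The counts of single genes showed the same tumours. Double-transgenic replicate 1 was the highest tumour for 4 of the 28 members and Eμ-Myc replicate 4 for 21, where these tumours were highest for 9.19% and 10.1% of all tested genes. At the other end, Eμ-Myc replicate 1 was the lowest tumour for 12 of the 28 members and for 19.6% of all tested genes, and neither double-transgenic replicate 1 nor Eμ-Myc replicate 4 was lowest for any. Over the 9 tumours the median SD of the 28 members was 0.94 on the log2 scale, against 0.36 over all tested genes. Of the 28, 27 exceeded the median SD of all genes, and 11 (39.3%) were in the top 10% of all genes by SD.

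**Figure D1:**
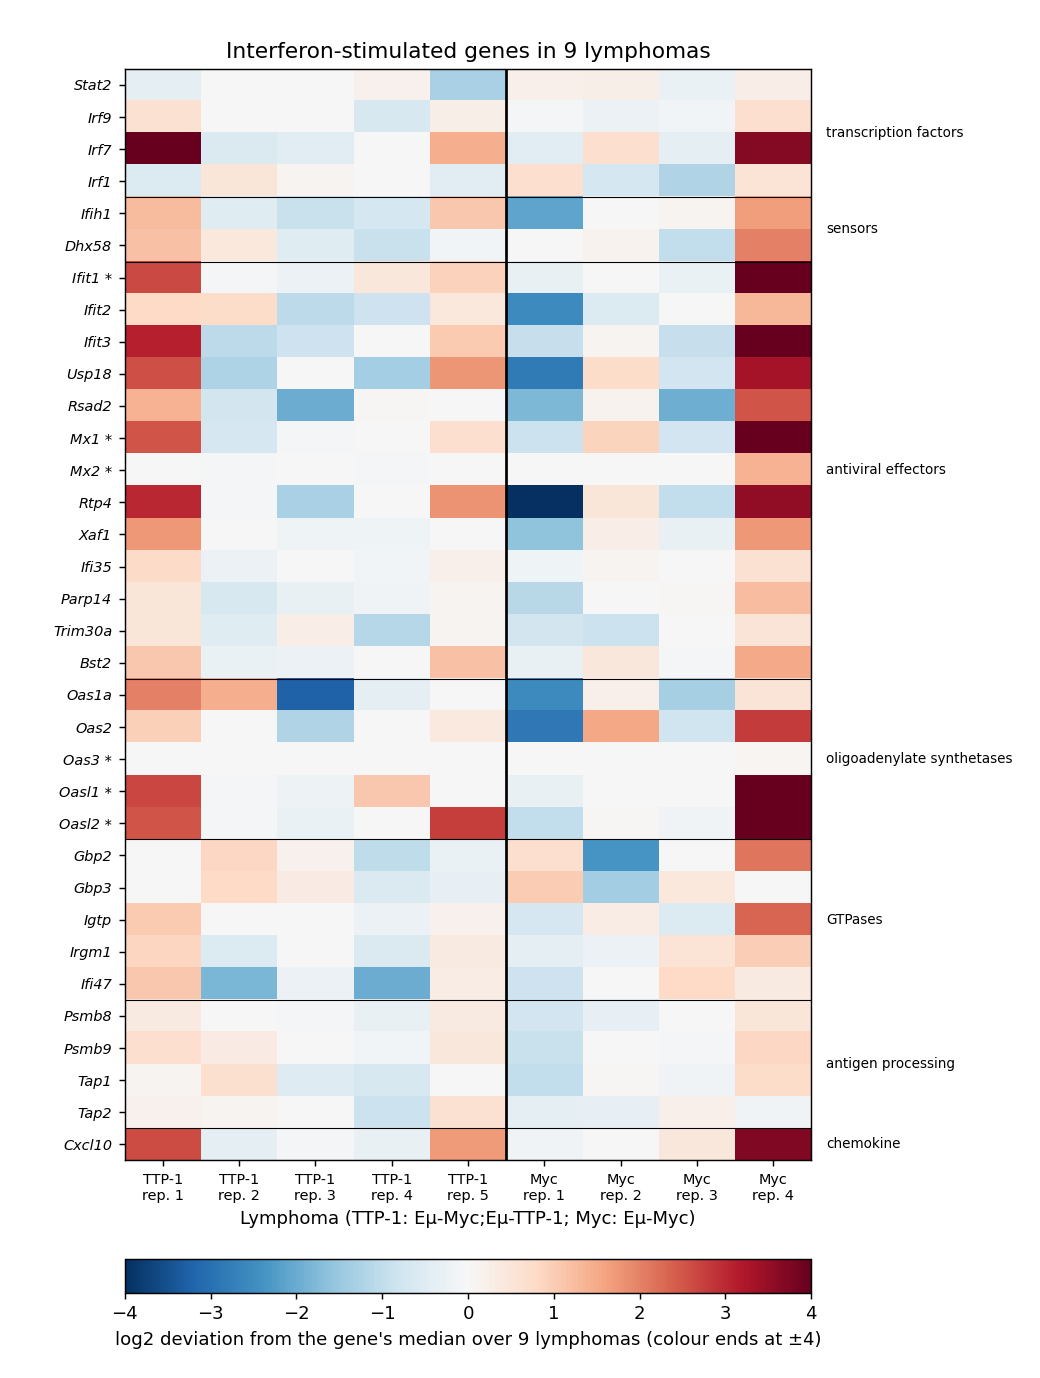
Log2 deviation of each of the 34 measured interferon-stimulated genes (rows, grouped by role) from its median over the 9 lymphomas (columns, double-transgenic left of the line and Eμ-Myc right of it), with colours ending at a deviation of 4 either way. An asterisk marks the 6 genes that did not pass the filter on low values. Eμ-Myc replicate 4 and double-transgenic replicate 1 are red in most rows, and Eμ-Myc replicate 1 is blue in many.

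**Figure D2:**
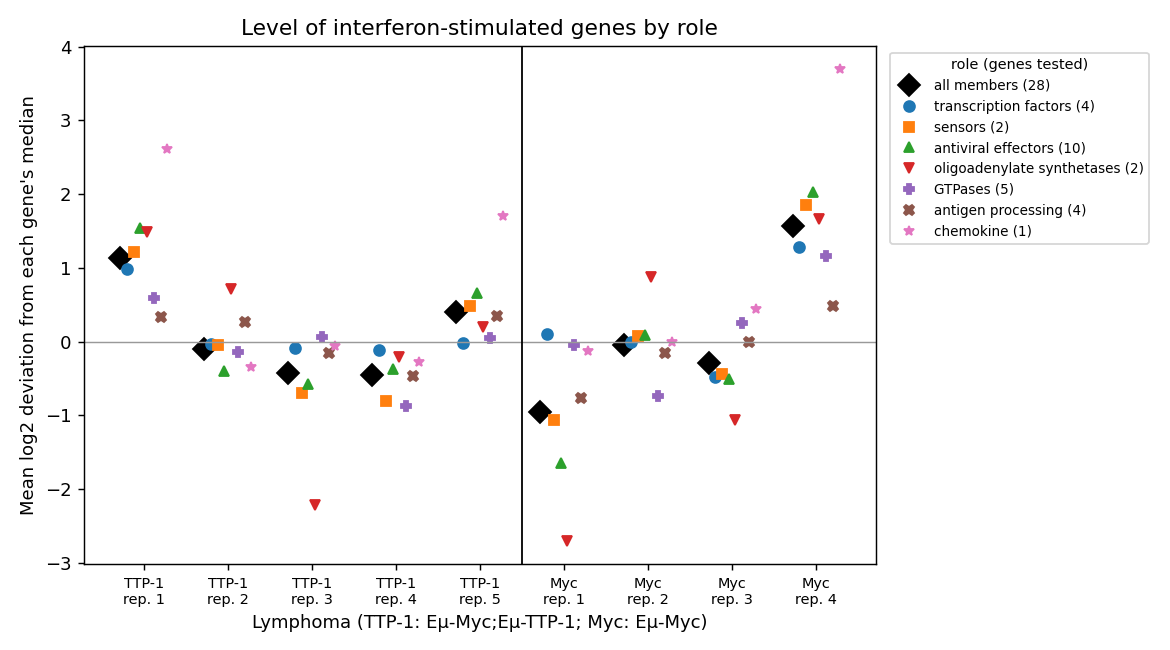
Mean log2 deviation of the tested genes of each role (markers, with the number of genes in the legend) and of all 28 tested genes (diamonds) in each lymphoma. The diamonds stand at 1.13 in double-transgenic replicate 1, 1.57 in Eμ-Myc replicate 4 and -0.96 in Eμ-Myc replicate 1, and the transcription factors and GTPases of that last tumour lie near 0.

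Among the transcription factors, Irf7 carried most of the variation between tumours. Irf7, which amplifies type I interferon production and is itself induced by interferon, read 8.54, 3.71, 3.85, 4.28 and 5.72 in double-transgenic replicates 1 to 5 and 3.84, 4.95, 3.92 and 7.94 in Eμ-Myc replicates 1 to 4. It was therefore at background in 2 double-transgenic and 2 Eμ-Myc tumours and well above it in double-transgenic replicate 1 and Eμ-Myc replicate 4. Irf9, a DNA-binding partner of STAT2, moved in a narrower band of 7.97 to 9.22 in double-transgenic and 8.39 to 9.28 in Eμ-Myc tumours, with the top values in the same 2 tumours.

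Stat2 and Irf1 did not share this order. Stat2 read 5.75, 6.10, 6.13, 6.31 and 4.83 in double-transgenic and 6.33, 6.36, 5.87 and 6.39 in Eμ-Myc tumours, lowest in double-transgenic replicate 5. Irf1, a factor induced most directly by interferon gamma, read 8.77, 9.80, 9.44, 9.32 and 8.87 in double-transgenic and 10, 8.63, 8.12 and 9.86 in Eμ-Myc tumours. It was thus highest in Eμ-Myc replicate 1, where the level of all members was lowest, and double-transgenic replicate 1 was below the other 4 double-transgenic tumours.

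Both sensors were highest in Eμ-Myc replicate 4 and next highest in double-transgenic replicate 1. Ifih1, which encodes the cytosolic RNA sensor MDA5, read 7.69, 5.94, 5.53, 5.72 and 7.51 in double-transgenic and 4.32, 6.43, 6.54 and 8.10 in Eμ-Myc tumours. Double-transgenic replicates 1 and 5 and Eμ-Myc replicate 4 exceeded all others, and Eμ-Myc replicate 1 was the lowest. Dhx58, which encodes the related protein LGP2, read 8.11, 7.37, 6.48, 6.06 and 6.84 in double-transgenic and 6.95, 7.09, 5.96 and 8.98 in Eμ-Myc tumours. Here double-transgenic replicate 5 was not among the high tumours, and the lowest was Eμ-Myc replicate 3 rather than replicate 1.

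Among the tested antiviral effectors, Rtp4 and Usp18 had the widest ranges. Rtp4, an interferon-induced chaperone and inhibitor of flavivirus replication, read 10.45, 7.38, 6.13, 7.44 and 9.24 in double-transgenic and 2.95, 7.93, 6.44 and 11.00 in Eμ-Myc tumours. Only Eμ-Myc replicate 1 was at background in this probe set, and the SD over 9 tumours, 2.44, was the highest of all measured members. Usp18, which removes ISG15 from proteins and dampens the type I receptor, read 7.88, 4.07, 5.30, 3.95 and 7.07 in double-transgenic and 2.47, 6.04, 4.52 and 8.64 in Eμ-Myc tumours, again lowest in Eμ-Myc replicate 1. A weaker Rtp4 probe set, mostly within the background range, was not lowest there. It read 3.30 to 3.75 in double-transgenic tumours and 4.01, 3.53, 3.53 and 4.97 in Eμ-Myc replicates 1 to 4.

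The Ifit genes, whose proteins bind viral RNA, agreed in which tumour was highest but not in their breadth. Ifit3 read 7.90, 3.73, 3.95, 4.79 and 5.85 in double-transgenic and 3.88, 4.90, 3.87 and 8.79 in Eμ-Myc tumours. Ifit2 was above background everywhere, with 9.87, 9.80, 8, 8.23 and 9.47 in double-transgenic and 6.52, 8.52, 9.06 and 10.38 in Eμ-Myc tumours. Ifit1 did not pass the filter, since it exceeded 4 only in double-transgenic replicate 1 (4.82) and Eμ-Myc replicate 4 (8.11).

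Rsad2, the viral inhibitor viperin, read 9.07, 6.93, 5.70, 7.72 and 7.67 in double-transgenic and 5.88, 7.81, 5.73 and 10.17 in Eμ-Myc tumours. Xaf1, a pro-apoptotic partner of XIAP, read 9.26, 7.54, 7.38, 7.37 and 7.54 in double-transgenic and 5.93, 7.82, 7.25 and 9.28 in Eμ-Myc tumours. Bst2 (tetherin, which holds budding virus at the cell surface) read 10.79, 9.43, 9.46, 9.70 and 10.88 in double-transgenic and 9.41, 10.14, 9.64 and 11.22 in Eμ-Myc tumours, so that double-transgenic replicates 1 and 5 and Eμ-Myc replicate 4 stood above the rest. The remaining tested effectors, Ifi35, the ADP-ribosyltransferase gene Parp14 and Trim30a, had SDs of 0.35 to 0.66 and were each highest in double-transgenic replicate 1 or Eμ-Myc replicate 4.

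The Mx genes encode antiviral GTPases, and the common C57BL/6 allele of Mx1 makes no functional protein. Mx1 read 5.71, 2.52, 3.15, 3.20 and 3.86 in double-transgenic and 2.34, 4.09, 2.43 and 8.07 in Eμ-Myc tumours. It passed 4 in only 3 tumours and was not tested, and Mx2 lay at background in all 9, with 3.53 in Eμ-Myc replicate 4 as its highest value.

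Oligoadenylate synthetases make the second messenger that activates RNase L, and their order differed from that of the other effectors in some tumours. Oas1a read 10.11, 9.52, 4.84, 7.69 and 8.08 in double-transgenic and 5.54, 8.27, 6.74 and 8.6 in Eμ-Myc tumours, so that double-transgenic replicates 1 and 2 exceeded Eμ-Myc replicate 4, and double-transgenic replicate 3 was the lowest. Oas2 read 6.59, 5.65, 4.46, 5.63 and 6.05 in double-transgenic and 2.79, 7.21, 4.86 and 8.45 in Eμ-Myc tumours. The 2 genes lie on chromosome 5, whose other tested genes had a median deviation between -0.06 and 0.00 in every tumour.

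Oasl1 and Oasl2, genes of the same family, did not pass the filter. Oasl2 exceeded 4 only in double-transgenic replicates 1 and 5 (6.12 and 6.40) and Eμ-Myc replicate 4 (7.69), and Oasl1 only in double-transgenic replicate 1 (5.45) and Eμ-Myc replicate 4 (6.86). The Oas3 probe set lay between 1.97 and 2.08 and was thus at background in all tumours. The 6 genes left out by the filter were thus Ifit1, Mx1, Mx2, Oas3, Oasl1 and Oasl2, and 4 of these were above background in 2 or 3 tumours only.

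The interferon-inducible GTPases divided into those that followed the general order and those that did not. Igtp, of the immunity-related GTPases that act on vacuoles of intracellular microbes, read 7.90, 6.85, 6.85, 6.62 and 7.03 in double-transgenic and 6.18, 7.15, 6.29 and 9.17 in Eμ-Myc tumours. Its relative Irgm1 was likewise highest in double-transgenic replicate 1 (10.13) and Eμ-Myc replicate 4 (10.27). Ifi47 was highest in double-transgenic replicate 1 (12.34) and Eμ-Myc replicate 3 (12.08), and low in double-transgenic replicates 2 (9.45) and 4 (9.30).

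The guanylate-binding proteins, which coat and disrupt microbial membranes, gave a different picture. Gbp3 read 9.47, 10.28, 9.80, 8.90 and 9.15 in double-transgenic and 10.5, 8.10, 9.91 and 9.48 in Eμ-Myc tumours, highest in Eμ-Myc replicate 1. Gbp2 read 8.84, 9.68, 9.02, 7.83 and 8.58 in double-transgenic and 9.51, 6.49, 8.85 and 10.98 in Eμ-Myc tumours, and both genes were lowest in Eμ-Myc replicate 2. The Gbp2 values come from a probe set of the _x_at class, which can hybridise to other transcripts. Its other probe set showed the same highest and lowest tumours but a log2 difference between genotypes of 0.28 in place of -0.17.

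The antigen processing genes, which encode immunoproteasome subunits and the transporter that carries peptides to class I molecules, were abundant and varied least. Psmb9 read 12.28, 11.93, 11.58, 11.51 and 12.07 in double-transgenic and 10.72, 11.61, 11.56 and 12.43 in Eμ-Myc tumours, with the same highest and lowest tumours as the effectors. Psmb8 spanned 12.34 to 13.02 in double-transgenic and 11.88 to 13.13 in Eμ-Myc tumours, and Tap1 spanned 9.13 to 10.41 in double-transgenic and 8.79 to 10.5 in Eμ-Myc tumours. Tap2 had its highest value in double-transgenic replicate 5 (10.02) and its lowest in replicate 4 (8.56). All 4 genes lie on chromosome 17, whose other 514 tested genes had a median deviation of 0.33 in double-transgenic replicate 5, and the genes beside Tap2 one of 0.47 in that tumour and of -0.52 in double-transgenic replicate 4. The part of these shifts in the 4 genes was not tested.

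Cxcl10, a chemokine that attracts activated T cells, split the tumours clearly. It read 9.50, 6.54, 6.83, 6.60 and 8.59 in double-transgenic and 6.75, 6.89, 7.33 and 10.58 in Eμ-Myc tumours. Double-transgenic replicates 1 and 5 and Eμ-Myc replicate 4 were each more than 1 log2 unit above every other tumour.

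Most members varied together over the tumours, as a correlation of each member with the mean of the other 27 describes. These values share the arrays and the normalisation, and serve as a description over 9 tumours. The median r was 0.85, and r exceeded 0.5 for 23 of 28 members, against 8.65% of the tested genes that are no member, taken against the level of the members. The 5 others were Gbp2 (0.32), Tap2 (0.35), Irf1 (-0.08), Stat2 (-0.22) and Gbp3 (-0.27). Without the 2 tumours farthest from the middle, double-transgenic replicate 1 and Eμ-Myc replicate 4, the median r over 7 tumours was 0.66. It then exceeded 0.5 for 19 members, against 14.6% of the tested genes that are no member, with 0.94 for Ifih1 and 0.90 for Rtp4 but 0.17 for Dhx58 and 0.36 for Irf9.

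The genes outside the list whose pattern was most like the level of the members were Cxcl9 (r = 0.93), Fastkd2 (0.91), Iigp1 (0.90), Def8 (0.90), Aig1 (0.89), Phf11d (0.88), Zfand2a (0.88), Irgm2 (0.88), Thap7 (0.87), Cyb5r1 (0.87), 0610012G03Rik (0.86) and Polr2h (0.86), over 9 tumours. Cxcl9, Iigp1, Phf11d and Irgm2 are themselves interferon-stimulated. Cxcl9, a second chemokine for T cells, read 7.49, 3.17, 4.66, 4.43 and 6.18 in double-transgenic and 2.60, 4.40, 3.41 and 10.86 in Eμ-Myc tumours. Of the other 8, Fastkd2 and Zfand2a spread by an SD of only 0.09 and 0.15, and Thap7, 0610012G03Rik and Polr2h lie on chromosome 16, which stood higher in Eμ-Myc replicate 4 as given below. Without double-transgenic replicate 1 and Eμ-Myc replicate 4, r of the 12 genes ran from 0.39 to 0.79.

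Between the genotypes, which the study compared to learn how a TTP transgene changes Myc-driven lymphomas, no interferon-stimulated gene passed the test. Of the 28 tested members, 0 had a Benjamini-Hochberg adjusted p under 0.05 with limma, where 0.0% of the 10172 tested genes did. None had an unadjusted limma p under 0.05 either, against 5.67% of all genes (3.87% higher and 1.8% lower in double-transgenic tumours). For none were the groups free of overlap, against 1.64% of all genes (1.18% higher and 0.462% lower). Log2 differences, double-transgenic minus Eμ-Myc, were above 0 for 15 members and below 0 for 13, from -0.61 to 1.05, with a median of 0.01 beside 0.05 over all tested genes. That split moved with the scaling, to 11 above and 17 below 0 after quantile normalisation and 10 and 18 after median centring. With arrays weighted by their quality in limma it was 5 and 23, with a median of -0.36 beside 0.04 over all genes.

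The spread within each genotype set how small a difference could have been seen. The median SE of the members was 0.61 on the log2 scale, against 0.23 over all tested genes. Rtp4 had the largest difference, with 8.13 ± 1.71 in double-transgenic (SD, n = 5) and 7.08 ± 3.34 in Eμ-Myc tumours (SD, n = 4). Its log2 difference was thus 1.05, the 95% interval ran from -2.44 to 4.53, and limma gave an adjusted p of 0.944. With the mean of its probe sets the Rtp4 difference was 0.25. Oas1a came next with 0.76 (SE 1.09, interval -1.73 to 3.24), and Ifi47 was lowest with -0.61 (SE 0.67, interval -2.14 to 0.91). None of these exceeded the spread between tumours.

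The narrowest intervals were those of the less variable members. Ifi35 differed by -0.02, and its 95% interval ran from -0.57 to 0.54, which allows a change between 0.674-fold and 1.45-fold. Psmb8 had 0.22 (interval -0.37 to 0.82), Psmb9 0.29 (-0.44 to 1.03) and Irf9 -0.03 (-0.66 to 0.59). For Usp18, at 0.24, the interval of -2.73 to 3.21 allowed both a much lower and a much higher level. Stat2 had the smallest unadjusted limma p of the members, 0.20, with a difference of -0.41 (SE 0.30, adjusted p = 0.872, exact two-sided permutation p = 0.222).

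**Figure D3:**
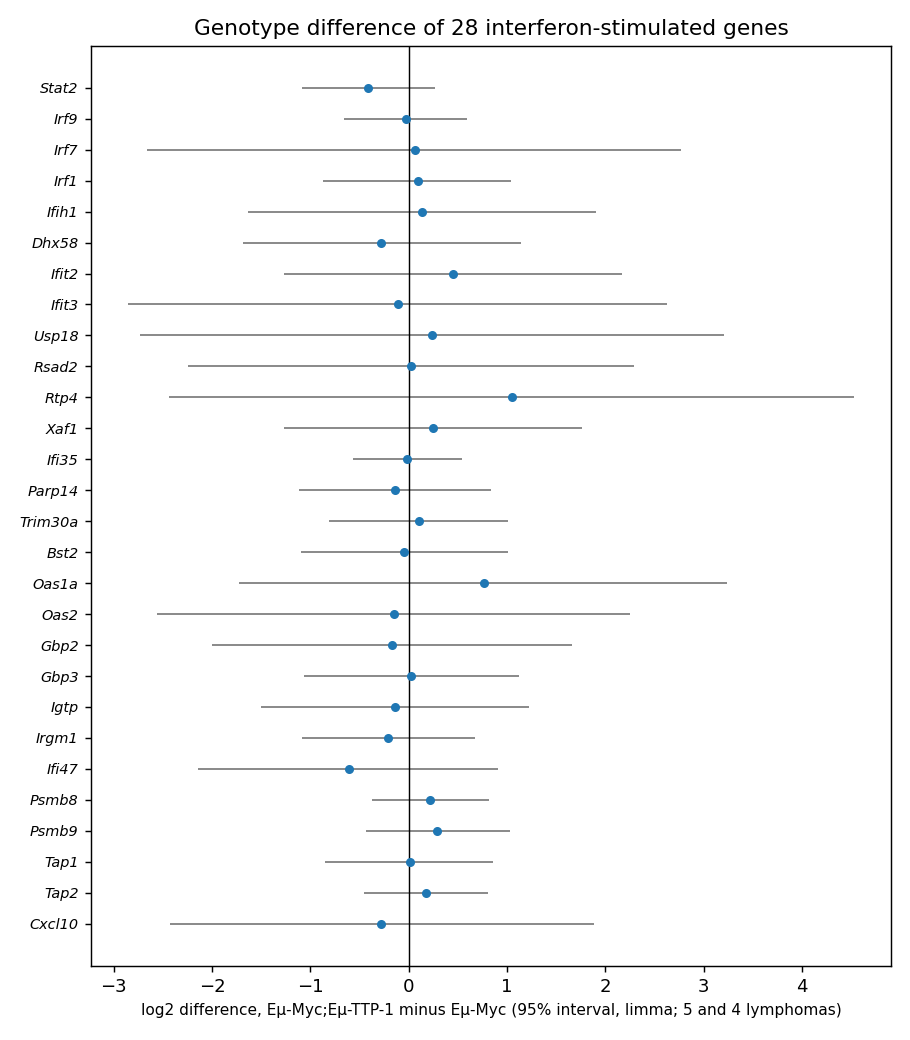
Log2 difference between genotypes, double-transgenic minus Eμ-Myc, of the 28 tested interferon-stimulated genes, with 95% intervals from limma. Every interval includes 0, and those of Rtp4, Usp18, Ifit3 and Irf7 are the widest.

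Single tumours could turn the sign of these differences. Without Eμ-Myc replicate 4, the tumour with the highest level, the median difference of the 28 members was 0.47, and without Eμ-Myc replicate 1, the tumour with the lowest, it was -0.32. In each of the 9 fits with 1 tumour left out, 0 members had an adjusted or an unadjusted limma p under 0.05, while over all tested genes 8 passed the adjusted test without Eμ-Myc replicate 3 and 1 without Eμ-Myc replicate 4.

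The interferon genes themselves were not detected apart from 1 reading. Of 21 such genes listed, 10 had a probe set of their own and 0 passed the filter. Of these, 9 lay between 1.71 and 2.93 in all tumours, among them Ifnb1 (2.26 to 2.35 in double-transgenic, 2.30 to 2.35 in Eμ-Myc) and Ifng (2.34 to 2.44 in double-transgenic, 2.43 to 2.53 in Eμ-Myc). The exception was Ifnz, at 6.13 in double-transgenic replicate 2. The level of the members was -0.10 in that tumour, with 9 members above their medians and 14 below. Their deviations there ran from -1.82 for Ifi47 to 1.44 for Oas1a.

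The receptor genes Ifnar1, Ifnar2 and Ifngr2 had their highest values in the tumour with the lowest level of interferon-stimulated genes. Ifnar1, a chain of the type I receptor, read 7.85, 8.43, 8.11, 8.28 and 7.87 in double-transgenic and 10.32, 7.41, 8.20 and 8.09 in Eμ-Myc tumours, with Eμ-Myc replicate 1 far above the rest. Ifnar2, the other chain, read 9.46, 10.63, 9.52, 9.80 and 9.92 in double-transgenic and 11.15, 9.48, 9.76 and 10.28 in Eμ-Myc tumours. Ifngr2, of the interferon gamma receptor, read 8.94, 8.73, 9.38, 9.14 and 8.73 in double-transgenic and 11.32, 7.6, 9.12 and 8.6 in Eμ-Myc tumours. These 3 genes are neighbours on chromosome 16, and the 18 tested genes around Ifnar1 had a median deviation of 1.75 in that tumour. The high reading in Eμ-Myc replicate 1 was thus shared by the genes around them, and its part in interferon signalling was not tested. They were chosen for description after their values were seen.

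Tyk2, the kinase bound to IFNAR1, was high in a different tumour. It read 11.11, 9.22, 9, 9.05 and 8.93 in double-transgenic and 9.31, 9.25, 9.06 and 9.33 in Eμ-Myc tumours. Double-transgenic replicate 1, the tumour with the second highest level of interferon-stimulated genes, was thus nearly 2 log2 units above all others, while the 20 tested genes around Tyk2 on chromosome 9 had a median deviation of 0.21 there. Eμ-Myc replicate 4, whose level was higher still, had a Tyk2 value like that of the others. Tyk2 too was chosen after its values were seen.

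**Figure D4:**
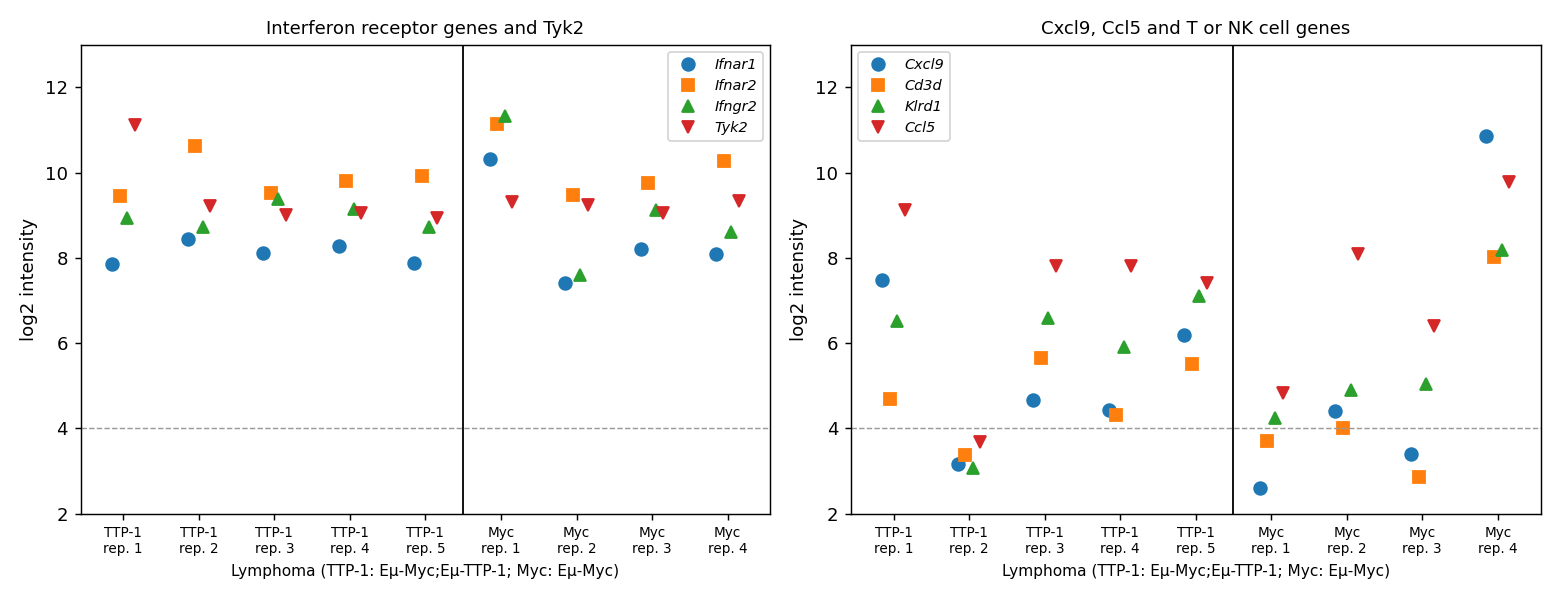
Log2 intensity of interferon receptor genes and Tyk2 (left panel) and of Cxcl9, Ccl5 and the lymphocyte genes Cd3d and Klrd1 (right panel) in each lymphoma, with a dashed line at 4, the top of the background range. Ifnar1, Ifnar2 and Ifngr2 are highest in Eμ-Myc replicate 1, Tyk2 in double-transgenic replicate 1, and all 4 genes of the right panel in Eμ-Myc replicate 4. The genes of the right panel were chosen after their values were seen. Other T cell markers, not shown, differ: Cd4 was highest in double-transgenic replicate 5 (7.5) and Thy1 in double-transgenic replicate 2 (9.73).

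In the signalling list no gene passed the test between genotypes, which does not show that the levels were equal. Of 10 tested receptor, kinase and STAT genes 0 passed the adjusted test and 0 had an unadjusted limma p under 0.05, and their median log2 difference was 0.02. Jak1, which pairs with both receptors, had 0.83 (SE 0.49, limma adjusted p = 0.860) and Stat5a, a STAT of cytokine receptors, 0.70 (SE 0.62), while Ifnar1 had -0.40 (SE 0.52) and Ifnar2 -0.31 (SE 0.37). Jak1 and Stat5a were both highest in double-transgenic replicate 2, at 14.33 and 11.02. Of the 5 other IRF genes tested, 0 passed and the median difference was -0.05. Irf8 (0.05) and Irf5 (-0.01), factors of B and myeloid cells, and Irf2 (-0.17) and Irf4 (-0.08) lay at the ends.

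Nucleic acid sensors and their adaptors also gave 0 calls among 12 tested genes, with a median of -0.09. Cgas, the cytosolic DNA sensor, read 7.91, 8.6, 7.26, 8.63 and 8.89 in double-transgenic and 5.64, 9.36, 6.80 and 9.74 in Eμ-Myc tumours. Like the interferon-stimulated genes it was lowest in Eμ-Myc replicate 1 and highest in Eμ-Myc replicate 4, but double-transgenic replicate 1 was not high. Sting1, its signalling partner, was highest in Eμ-Myc replicate 1 (11.44) and lowest in double-transgenic replicate 2 (8.78) and Eμ-Myc replicate 4 (8.79). Aim2, which senses DNA for the inflammasome, and Tlr7, the endosomal RNA receptor, had differences of 0.88 (SE 0.69) and -0.43 (SE 0.57).

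Among 12 tested negative regulators, 0 passed the adjusted test, and 2, both lower in double-transgenic tumours, had an unadjusted limma p under 0.05. Over all tested genes, 5.67% had such a p in either direction, and 1.8% had it with lower values in double-transgenic tumours. Ptpn1, a phosphatase that acts on JAK2 and TYK2, read 11.14, 10.82, 11.04, 10.95 and 11.04 in double-transgenic and 11.58, 11.84, 11.23 and 11.46 in Eμ-Myc tumours. All double-transgenic values lay below all Eμ-Myc values, as for 0.462% of all tested genes, and the log2 difference was -0.53 (SE 0.14, adjusted p = 0.845 with limma). The exact permutation p of 0.00794 is the smallest that splits of 5 and 4 tumours can give, and Ptpn1 was named for its place at the end of the list by log2 difference. Samhd1, a nuclease that limits nucleotide pools, had -0.61 (SE 0.24, limma adjusted p = 0.845). At the other end were Ptpn6 (0.67, SE 0.31) and Irf2bp1 (0.35, SE 0.17).

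A second list of 80 interferon-stimulated genes, none of them a member, varied with the members. Its 60 tested genes had a mean deviation of 0.41, -0.07, 0.03, -0.12 and 0.19 in double-transgenic replicates 1 to 5 and of -0.39, -0.38, 0.00 and 0.71 in Eμ-Myc replicates 1 to 4. The 3 highest were again double-transgenic replicates 1 and 5 with Eμ-Myc replicate 4, and Eμ-Myc replicate 1 the lowest, followed closely by Eμ-Myc replicate 2. Between genotypes 0 of the 60 passed the adjusted test, and the median difference was 0.07. An unadjusted limma p under 0.05 was found for 2 of them, both higher in double-transgenic tumours. Over all tested genes it was 5.67% in either direction and 3.87% higher. The ends of that list were Tnfsf10 (2.68, SE 1.63), which encodes the death ligand TRAIL, Lgals9 (1.16, SE 0.45), Casp4 (-1.04, SE 0.61) and Ifitm1 (-0.87, SE 1.33). Tnfsf10 read 3.58, 10.90, 4.11, 9.27 and 3.92 in double-transgenic and 3.06, 3.04, 3.35 and 5.25 in Eμ-Myc tumours. Its highest values were in double-transgenic replicates 2 and 4, where the level of the members was below 0, and it was over 4 also in double-transgenic replicate 3 and Eμ-Myc replicate 4.

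Class I molecules and their helpers varied little as a group. The mean deviation of 13 tested genes ran from -0.14 to 0.14 in double-transgenic and from -0.01 to 0.21 in Eμ-Myc tumours. B2m, the light chain of all class I molecules, spanned 14.27 to 14.83 in double-transgenic and 14.36 to 14.76 in Eμ-Myc tumours. Between genotypes 0 of the 13 passed the adjusted test and the median difference was -0.04. Nlrc5, the transactivator of class I genes, was high in double-transgenic replicate 1 (11.13) and Eμ-Myc replicate 4 (11.25), as the members were, but double-transgenic replicates 2 and 3 followed closely, at 10.90 and 10.80. Its difference was 0.19 (SE 0.31) and that of H2-M3 was 0.19 (SE 0.27), while Tapbpl had -0.61 (SE 0.33). Erap1, a peptide-trimming enzyme, had -0.52 (SE 0.16, limma adjusted p = 0.845). It was the 1 gene of the list with an unadjusted limma p under 0.05, as 5.67% of all tested genes had in either direction and 1.8% with lower values in double-transgenic tumours. Its double-transgenic values (9.78 to 10.32) lay below all Eμ-Myc values (10.51 to 11.02), as for 0.462% of all tested genes. The exact permutation p was 0.00794, for a gene named for its place at the end of the list by log2 difference.

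Markers of T and natural killer cells were read beside the members, since such cells make interferon gamma. The 5 tested T cell markers of 10 listed had a mean deviation of 0.41, -0.37, 0.43, 0.06 and 1.07 in double-transgenic and -0.19, -0.09, 0.05 and 0.83 in Eμ-Myc tumours. The summed intensity of the 8 on the array ranged from 1397 to 3922 in double-transgenic and from 1329 to 4884 in Eμ-Myc tumours, and Cd3e was at background in all. Cd3d, of the T cell receptor complex, read 4.68, 3.37, 5.64, 4.32 and 5.51 in double-transgenic and 3.70, 4.01, 2.86 and 8.02 in Eμ-Myc tumours, highest in Eμ-Myc replicate 4. Cd4, the co-receptor of helper T cells, read 7.09, 2.16, 5.95, 4.63 and 7.5 in double-transgenic and 4.03, 5.03, 6.98 and 4.22 in Eμ-Myc tumours. Thy1, a surface protein of T cells and some stromal cells, read 4.74, 9.73, 4.71, 7.02 and 6.69 in double-transgenic and 5.03, 4.86, 4.74 and 9.33 in Eμ-Myc tumours. The markers thus differed in their order: Cd4 was low in Eμ-Myc replicate 4, and Thy1 was highest in double-transgenic replicate 2. Like Cd3d, Cd3g, Cd8a and Cd8b1 were highest in Eμ-Myc replicate 4, though of these 3 only Cd8a passed the filter. Cd3g read 6.38 there (4.01 or less elsewhere), Cd8a 5.16 (4.57 or less) and Cd8b1 5.42 (4.77 or less).

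Of 7 natural killer markers on the array, 3 were at background in all tumours, Ncr1 among them, and the summed intensity was 34 to 187 in double-transgenic and 61 to 365 in Eμ-Myc tumours. The only tested one, the receptor gene Klrd1, read 6.52, 3.07, 6.58, 5.91 and 7.11 in double-transgenic and 4.25, 4.90, 5.04 and 8.19 in Eμ-Myc tumours. Double-transgenic replicate 1 had a higher level of the members than replicates 3 and 5 of its genotype. It was below both in Cd3d, Klrd1 and Cd8b1, between them in Cd4, Thy1 and Cd3g, and above both in Ccl5, Nkg7 and Cd8a. For Cd8a the gap was small, at 4.56 against 4.48 and 4.53 in replicates 3 and 5. Cd8b1 (2.90 against 3.74 and 3.10) and Cd3g (3.03 against 4.01 and 3.00) lay close to or within the background range. Ccl5 was on neither marker list. It read 9.13 in double-transgenic replicate 1, against 7.8 and 7.42 in replicates 3 and 5, and 9.78 in Eμ-Myc replicate 4. Nkg7 read 3.17, against 2.43 and 1.93, all within the background range, and 4.44 in Eμ-Myc replicate 4. The part of T and natural killer cells in the level of the members was not tested.

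Markers of other cell types that make or respond to interferon did not share the order of the members. Siglech, a defining marker of plasmacytoid dendritic cells, read 1.84 to 1.90 in double-transgenic and 1.88 to 1.92 in Eμ-Myc tumours and was at background in all. Of the 6 plasmacytoid markers 3 passed the filter, and their summed intensity, 312 to 1656 in double-transgenic and 190 to 20789 in Eμ-Myc tumours, was highest in Eμ-Myc replicate 1 through Ly6d, a gene that B lineage cells also express. Cox6a2, another of the 6, did not pass the filter but read 8.62 and 7.76 in Eμ-Myc replicates 1 and 2. Elsewhere it read 3.10 to 4.32 in double-transgenic tumours and 3.45 and 3.73 in Eμ-Myc replicates 3 and 4. None of 5 conventional dendritic markers on the array passed the filter, and their summed intensity was 36 to 93 in double-transgenic and 45 to 175 in Eμ-Myc tumours. The 10 tested macrophage markers had mean deviations of 0.05, -0.28, -0.96, 0.42 and -0.20 in double-transgenic and -0.31, -0.16, 1.22 and 0.41 in Eμ-Myc tumours, highest in Eμ-Myc replicate 3, where the level of the members was -0.29. The 8 tested granulocyte and 8 stromal and endothelial markers had mean deviations of 2.48 and 1.35 in Eμ-Myc replicate 4, but of -0.87 and -1.37 in double-transgenic replicate 1.

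Some chromosomes that hold members stood higher or lower as a whole in single tumours. The median deviation of the other tested genes of chromosome 16, which holds Rtp4, Parp14 and the Mx genes, was 0.50 in Eμ-Myc replicate 4. On chromosome 19, which holds the Ifit genes, double-transgenic replicate 3 had -0.46 and double-transgenic replicate 5 had 0.33. On chromosome 3, which holds Gbp2 and Gbp3, it was 0.26 in double-transgenic replicates 1 and 5 and 0.25 in Eμ-Myc replicate 1. With these medians subtracted, the order of the 9 tumours by the level of the members was the same and the span between the highest and the lowest was 2.48, against 2.53 without subtraction.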

How the data were processed

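One table of probe set values for 9 arrays was used. The authors deposited intensity values, made with GCRMA per the submitters' processing notes, which give no version. Values ran from 1.56 to 123104.7, with array medians of 12.2 to 13.4, and are linear, so log2 was taken with no pseudocount. Scanner files, detection calls and scan dates were not analysed here. The platform annotation pairs 34945 of the 45037 probe sets with a single gene, and these were kept. It pairs 932 with several genes and lists none for 9160. Symbols were updated through 34741 matches to RefSeq (GRCm38.p6). Each gene was represented by its probe set of highest mean. Genes over 4 on the log2 scale in at least 4 of 9 arrays were tested with limma 3.58.1 in R 4.3.3 (lmFit, eBayes, two-sided, no covariates, Benjamini-Hochberg adjustment, threshold 0.05), double-transgenic minus Eμ-Myc. The filter lets a gene pass through high values in 1 genotype alone. The script was tested on simulated data. Exact permutation ran over all splits of 5 and 4 arrays.

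All members were named, with 2 genes at each end of every related list by log2 difference and the 12 genes most correlated with the members' level. Further single genes, among them B2m, Ccl5, Cox6a2 and the named T and natural killer cell markers, were chosen after their values were seen. Members, lists and tests were chosen with earlier results of these data known. Alternatives were other filters, probe set choices, quantile normalisation, median centring, moderation with a trend, weighting of arrays, adding 16 before log2, a block for the replicate number, and leaving out each array. Chromosome centring was chosen after seeing the data.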

Additional observations from a re-analysis of the deposited data

Results flagged for a closer look

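Within a genotype, a tumour's value was singled out when its gap to the nearest other tumour was a large share of the whole range, at Dixon's 95% limit. Of 136 sets of values examined, 13 met this. Unselected and independent sets of normally distributed values would give about 1 in 20, or 6.8. The sets here included Tyk2, chosen after its values were seen, and genes at the ends of lists by log2 difference. The members also vary together, so 13 against 6.8 cannot be read as an excess over chance. Of the 13, 7 were in Eμ-Myc replicate 4. Against the other Eμ-Myc tumours, that tumour was at 8.11 for Ifit1 (others 1.89 to 2.18), 6.86 for Oasl1 (others 2.49 to 2.80), 10.58 for Cxcl10 (others 6.75 to 7.33), 11.25 for Nlrc5 (others 10.05 to 10.24), 5.25 for Tnfsf10 (others 3.04 to 3.35) and 9.66 for Irf5 (others 10.19 to 10.28), all on the log2 scale. It was also at 3.53 for Mx2 (others 2.15 to 2.16), within the background range. Eμ-Myc replicate 3 was at 5.87 for Stat2 (others 6.33 to 6.39).

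In double-transgenic replicate 1, Xaf1 was at 9.26 (other double-transgenic tumours 7.37 to 7.54), Tyk2 at 11.11 (others 8.93 to 9.22), and the mean deviation of the transcription factors at 0.98 (others -0.11 to -0.02). In double-transgenic replicate 2, Sting1 was at 8.78 (others 9.96 to 10.38) and Erap1 at 9.78 (others 10.17 to 10.32).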

How the results depend on the processing

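No member passed the adjusted test in any alternative run, and the order Eμ-Myc replicate 4, double-transgenic replicate 1, double-transgenic replicate 5 at the top and Eμ-Myc replicate 1 at the bottom held under every filter, probe set choice, normalisation, pseudocount and centring tried. By role, levels moved by more than 1 SD between tumours in 8 cases: antigen processing in double-transgenic replicate 1 (0.33) and Eμ-Myc replicate 4 (0.48), Cxcl10 in double-transgenic replicates 1 (2.61) and 5 (1.70) and Eμ-Myc replicate 4 (3.69), and oligoadenylate synthetases in double-transgenic replicates 2 (0.72) and 3 (-2.22) and Eμ-Myc replicate 1 (-2.70). The sign of uncalled differences between genotypes was not stable, and 6 of 28 members kept it throughout. It turned with array weights (median difference -0.36) for Irf7 (-0.51), Irf1 (-0.04), Ifih1 (-0.37), Ifit2 (-0.18), Usp18 (-0.72), Rsad2 (-0.60), Rtp4 (-0.08), Xaf1 (-0.26), Trim30a (-0.11) and Tap1 (-0.38), with quantile normalisation for Irf7 (-0.05), Rsad2 (-0.09), Gbp3 (-0.04) and Tap1 (-0.05), and with median centring for Irf7 (-0.03), Irf1 (0.00), Rsad2 (-0.07), Gbp3 (-0.06) and Tap1 (-0.08). It also turned with the mean of probe sets for Rsad2 (-0.36), Gbp2 (0.06) and Tap1 (-0.01), without _x_at probe sets for Gbp2 (0.28), with a pseudocount of 16 for Rsad2 (-0.03), and with chromosome centring, chosen after seeing the data, for Irf9 (0.01), Gbp3 (-0.08) and Tap1 (-0.09). Deviations of same-numbered tumours from their group means had r of -0.089, 0.092, -0.003 and 0.196. The closest double-transgenic tumour had the same number for Eμ-Myc replicates 2 and 4, but not for 1 and 3. These few values do not settle whether the numbers pair the tumours. With the replicate number as a block the median difference was -0.08, with no call changed. Irf7 (-0.07), Ifih1 (-0.13), Usp18 (-0.12), Rsad2 (-0.04) and Tap1 (-0.01) then turned. That fit gives the same values as leaving out double-transgenic replicate 5, whose number no Eμ-Myc tumour shares. The cause of the other turns was not tested. With 1 tumour left out in turn, the median difference ran from -0.32 to 0.47, and the differences of the members that turned ran from -0.77 to 0.98 for Irf7, -0.55 to 0.71 for Ifih1, -0.74 to 1.31 for Usp18, -0.54 to 0.95 for Rsad2, -0.30 to 0.82 for Xaf1, -0.10 to 0.36 for Trim30a, -0.29 to 0.28 for Tap1, -0.26 to 0.37 for Irf1, -0.78 to 1.03 for Ifit3, -0.18 to 0.15 for Ifi35, -0.28 to 0.32 for Bst2, -0.44 to 0.36 for Gbp3, -1.17 to 0.72 for Oas2, -0.18 to 0.17 for Irf9, -0.99 to 0.50 for Gbp2, -0.25 to 1.04 for Ifit2, -0.33 to 2.35 for Rtp4, -0.70 to 0.30 for Dhx58, -0.52 to 0.26 for Parp14, -0.48 to 0.51 for Igtp, -0.42 to 0.05 for Irgm1 and -0.75 to 0.62 for Cxcl10. Signals near the background limit the values of Irf7, Ifit3, Usp18, Rtp4 and Oas2, which were at or under 4 in some tumours.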
